A study of Mus musculus with 7 samples.

Results

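The genes described here are 20 cytosolic aminoacyl-tRNA synthetases and 17 genes of amino acid supply and stress signaling that are known targets or effectors of the transcription factor ATF4. They were chosen by gene symbol, and all 37 were found among the 24346 genes of the deposited expression table. Expression was measured by bulk RNA-seq of the cerebral cortex of male mice at postnatal day 100, on a C57BL/6J background. The 4 CrT-/y animals (replicates 0 to 3) were hemizygous for a deletion of exons 5 to 7 of Slc6a8, the X-linked gene of the creatine transporter, in every cell of the body, and the 3 CrT+/y animals (replicates 1 to 3) were their wild-type littermates. Each animal gave 1 library, so n = 4 and n = 3 throughout. In bulk tissue, fewer cells of a type and less RNA per cell cannot be told apart.

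Aminoacyl-tRNA synthetases attach each amino acid to its tRNA and so supply the ribosome. When amino acids run short, when unfolded proteins accumulate in the endoplasmic reticulum (ER) or when mitochondria fail, stress-sensing kinases phosphorylate the initiation factor eIF2, general translation drops and the ATF4 mRNA is translated more. ATF4 then binds composite C/EBP-ATF sites and raises the transcription of synthetases, of amino acid transporters, of enzymes of serine, asparagine and one-carbon metabolism, and of regulators such as CHOP (Ddit3). In brain, this integrated stress response is known from myelin disorders and neurodegeneration. The comparison asks whether mRNAs of this program differed in a cortex without the creatine transporter.

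The core of the ATF4 site was searched on both strands as TGATGNAA in RefSeq promoter windows of assembly GRCm38.p6, which run from 250 bases before to 50 bases after each annotated start. Of the 37 genes, 29 had a window, and 9 of these (31.0%) held the letters, in Aars, Gars, Iars, Tars, Yars, Asns, Chac1, Trib3 and Slc7a11. The share was 4.51% of all 27025 genes with a window and 2.58% of those expressed highly enough to be tested below. The stricter form TGATGCAA, which is contained in the first, stood in 6 of the 29 windows (20.7%) against 1.03% of all genes. The genes had been chosen partly as known ATF4 targets, so these shares describe the list. No window was held for Cars, Hars, Lars, Nars, Rars, Vars, Wars and Slc7a5. The following stretches belong to the 4 genes with the smallest p-values among the 9, so that the sites can be set beside their values, and are read 5′ to 3′ on the strand of the gene, with the matching letters in capitals (TTGCATCA and TTTCATCA are matches on the opposite strand).
Asns, 23 bases before the start, chr6:7693214-7693243, minus strand: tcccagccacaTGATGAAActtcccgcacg
Tars, 15 bases before the start, chr15:11399655-11399684, minus strand: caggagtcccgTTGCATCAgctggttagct
Iars, 7 bases after the start, chr13:49682126-49682155, plus strand: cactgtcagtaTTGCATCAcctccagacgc
Aars, 9 bases after the start, chr8:111033840-111033869, plus strand: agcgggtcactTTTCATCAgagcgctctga

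Expression is given as FPKM, a fragment count that the authors had already scaled to gene length and to the mapped reads of each library. The targeted gene separated the genotypes, with Slc6a8 at 14.4 ± 1.41 FPKM (SD, n = 4; 12.4 to 15.7) in CrT-/y and 30.0 ± 2.15 FPKM (SD, n = 3; 28.0 to 32.3) in CrT+/y animals (adjusted p = 0.0024 with limma). Summed FPKM was between 382949 and 403414, and the reads behind each single value could not be recovered from the table. The scale of the libraries differed by genotype. Median FPKM of the tested genes was 10.99 to 11.05 in CrT-/y and 11.25 to 11.37 in CrT+/y animals. The upper quartile of genes above 0 was 18.4 to 18.8 and 19.5 to 20.0 FPKM. Markers of cortical neurons and glia were present in every library, and none of the listed markers of any cell type was at 0. Markers of neighboring tissue were uneven between libraries. The summed FPKM of 6 choroid plexus markers was 400.8 in CrT+/y replicate 2 and at most 52.4 in the other 6 libraries. That of 6 striatal markers ranged from 132 to 327 in CrT-/y and from 75.2 to 284 in CrT+/y animals. That of 5 olfactory bulb markers was 6.70 to 18.7 in CrT-/y and 3.71 to 7.08 in CrT+/y animals, highest in CrT-/y replicate 1. The 3 olfactory bulb markers that could be tested were all higher in CrT-/y animals. Of these, Cdhr1 was called (log2 difference 1.51, adjusted p = 0.079 with limma), and its groups did not overlap. The part of such tissue in the values below was not tested.

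Of the 36 genes of this program that could be tested, 0 rose in the CrT-/y cortex and 3 fell: Farsb, the beta subunit of phenylalanyl-tRNA synthetase, Nars, the asparaginyl-tRNA synthetase, and Ddit3, the transcription factor CHOP. The falls were small, to between 0.82 and 0.84 of the CrT+/y level. Each gene was tested with limma on log2(FPKM + 0.1), with genes of a mean of at least 1 FPKM kept and a threshold of 0.1 on the p-value adjusted over all 12988 genes tested. Of the 37 genes, 36 passed this filter, and Trib3 did not. The 3 genes called lower are 8.33% of the 36, beside 7.25% of all tested genes called lower, 2.9% called higher and 10.1% called in either direction, so the share of calls was near that of the whole transcriptome. At an unadjusted p under 0.05, 8 of the 36 (22.2%) were lower and 0 higher, beside 16.8% of all tested genes lower and 8.19% higher.

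The log2 difference was below 0 in 27 of the 36 genes and above 0 in 9, with a median of -0.08. Under the 3 other scalings (quantile, upper quartile and median centring), 24 to 26 were lower and the median was between -0.05 and -0.03. The median over all tested genes was -0.03, and 58.2% of them were lower. In 8 genes (22.2%) the 4 CrT-/y values did not overlap the 3 CrT+/y values, beside 21.6% of all tested genes in either direction. Those were 2801 of 12988 genes, of which 1948 were lower in CrT-/y. The non-overlapping genes were Farsb, Nars, Ddit3, Asns, Tars, Iars, Aars and Kars, each with all CrT-/y values below all CrT+/y values. Every 95% interval of the 36 ended below a log2 difference of 0.5. The highest upper bound, 0.49 for Ddit4, corresponds to a 1.41-fold rise, and intervals lay wholly below 0 in 8 genes and wholly above 0 in 0.

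The balance of calls over all genes depended on how libraries were scaled to each other, and 377 genes were called higher and 941 lower as deposited. With upper quartile scaling the numbers were 604 and 499, with quantile normalization 528 and 555, and with median centring 490 and 527. Under each of these 3 scalings, Farsb was the 1 gene of the list still called. The number of calls also depended on single animals. Without CrT-/y replicate 1, 64 genes of the whole transcriptome and 0 of the list were called. Without CrT+/y replicate 3, 3733 genes were called, and 7 of the list were lower (Farsb, Nars, Ddit3, Aars, Asns, Rars, Tars) and 2 higher (Ddit4 and Vars).

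**Figure D1:**
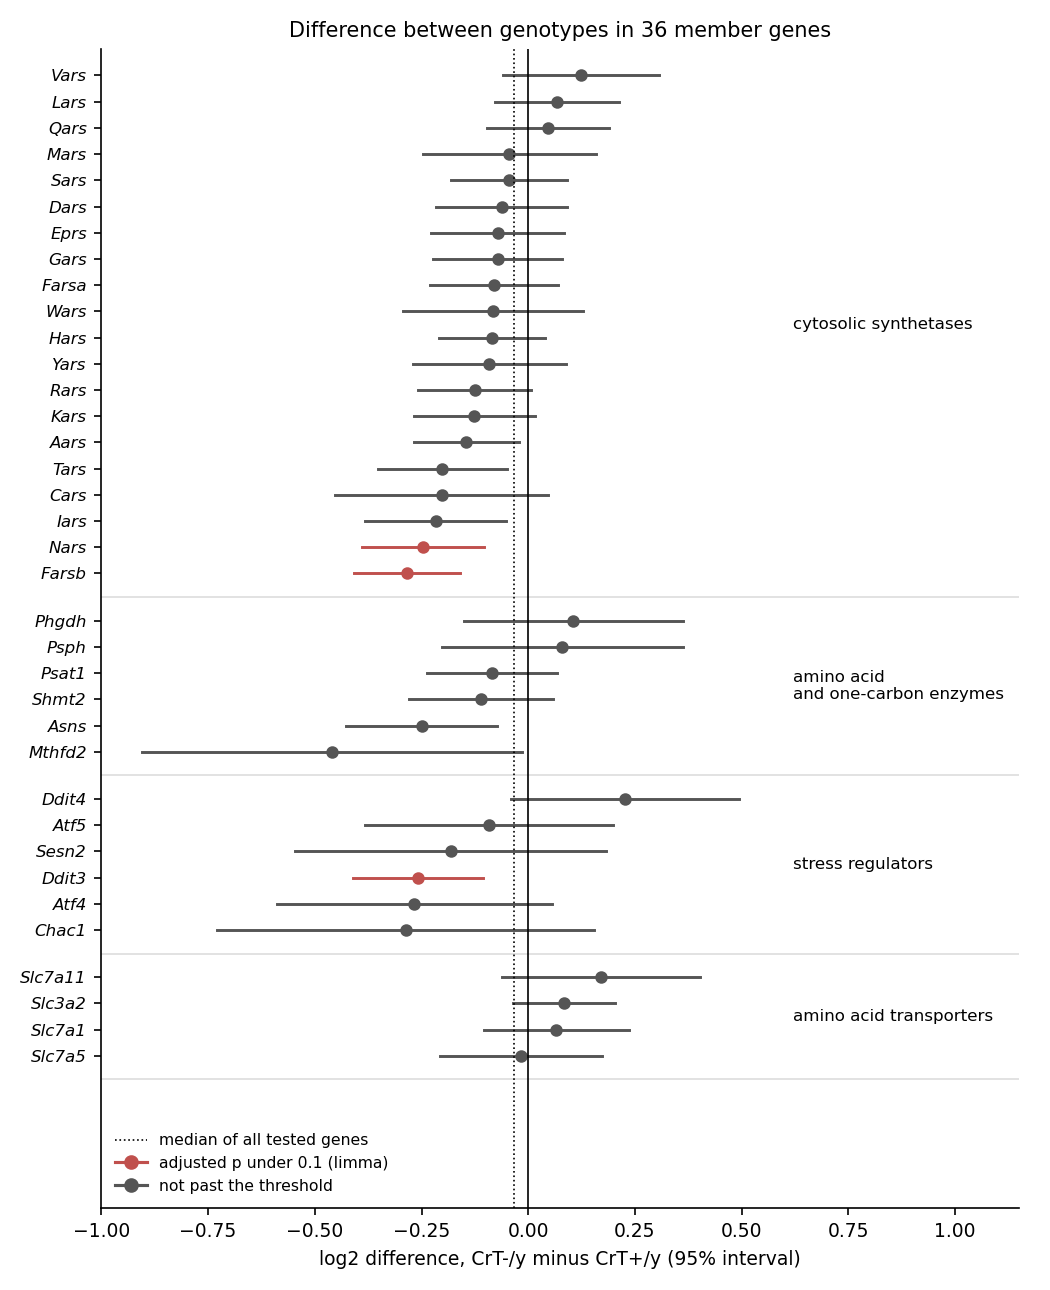
Difference between genotypes for each of the 36 tested genes, by role. The x axis is the log2 difference of FPKM + 0.1, CrT-/y (n = 4) minus CrT+/y (n = 3), with points for the estimate and bars for its 95% interval; red marks the 3 genes with an adjusted p under 0.1 with limma, and the dotted line is the median of all 12988 tested genes. Points lie to the left of 0 in 27 of 36 genes, and every bar ends below 0.5.

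Among the 20 cytosolic synthetases, Farsb and Nars fell (10%, beside 7.25% of all tested genes called lower) and the other 18 did not pass the test. Farsb was at 23.6, 22.6, 24.3 and 23.3 FPKM in CrT-/y replicates 0 to 3 and at 28.3, 27.4 and 30.0 FPKM in CrT+/y replicates 1 to 3. The highest CrT-/y animal lay below the lowest CrT+/y animal. The log2 difference was -0.28 (SE 0.055, 95% interval -0.41 to -0.16, adjusted p = 0.037 with limma), and the exact two-sided permutation test gave p = 0.0286, the smallest that the 35 splits of 4 and 3 animals allow. The call was lost without CrT-/y replicate 1 (adjusted p = 0.127 with limma, log2 difference -0.27). Farsb lies at chr1:78417975-78488897 of GRCm38 on the minus strand, and its exons overlap those of Sgpp2 on the other strand over up to 248 bases. Whether reads were assigned by strand is not given in the sources used here.

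Nars had the highest level of the 20 synthetases, 93.0 FPKM averaged over the 7 animals. It was at 91.5, 81.3, 89.0 and 82.8 FPKM in CrT-/y and at 109, 99.1 and 98.5 FPKM in CrT+/y animals. Again no CrT-/y animal reached the lowest CrT+/y animal, and replicates 1 and 3 were the lowest of the CrT-/y group. The log2 difference was -0.25 (SE 0.064, adjusted p = 0.064 with limma). This call was held in 7 of 19 alternatives, and it was lost in each fit that left out 1 animal except those without CrT-/y replicate 0 or CrT+/y replicate 3 (adjusted p up to 0.178 with limma). The gene lies at chr18:64499647-64516652 of GRCm38, minus strand, and has no exon in common with another annotated gene.

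A further 4 synthetases had non-overlapping groups without passing the test. With Farsb and Nars, 6 of the 20 (30%) did not overlap, all lower in CrT-/y, beside 21.6% of all tested genes in either direction. Tars, the threonyl enzyme, was at 10.01, 10.3, 10.2 and 9.09 FPKM in CrT-/y and at 11.04, 11.9 and 11.2 FPKM in CrT+/y animals (log2 difference -0.20, adjusted p = 0.115 with limma). Iars, the isoleucyl enzyme, was at 17.1, 15.3, 16.6 and 15.2 FPKM against 17.1, 20.2 and 18.7 FPKM (-0.22, adjusted p = 0.12 with limma). In Iars the gap between the groups was narrow, with 17.08 FPKM in CrT-/y replicate 0 and 17.14 FPKM in CrT+/y replicate 1. Aars, the alanyl enzyme, was at 55.1, 52.0, 53.8 and 51.1 FPKM against 61.9, 57.7 and 56.5 FPKM (-0.15, adjusted p = 0.145 with limma), and its exons overlap those of Exosc6 on the same strand over 1326 bases. Kars, the lysyl enzyme, was at 28.0, 29.1, 27.6 and 25.5 FPKM against 29.2, 29.2 and 31.9 FPKM (-0.13, adjusted p = 0.243 with limma). Its groups were nearly in contact too, with 29.10 FPKM in CrT-/y replicate 1 and 29.20 FPKM in CrT+/y replicate 2.

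Levels of the other 14 synthetases overlapped between the genotypes. Log2 differences below 0 were found in Cars (-0.20), Rars (-0.13), Yars (-0.091), Hars (-0.084, with up to 195 exon bases in common with Hars2 on the other strand), Wars (-0.083), Farsa (-0.080), Gars (-0.072), Eprs (-0.072), Dars (-0.062), Sars (-0.045) and Mars (-0.044). Differences above 0 were found in Qars (0.046), Lars (0.067) and Vars (0.12). Over all 20 synthetases, 17 (85%) were lower and the median was -0.083, beside 58.2% and -0.033 over all tested genes. Under the 3 other scalings, 15 to 17 of the 20 were lower and the median was between -0.046 and -0.027. Levels per length spanned 8.83-fold, from 10.5 FPKM for Tars to 93.0 FPKM for Nars with a median of 22.4 FPKM, and Gars (57.1 FPKM) and Aars (55.4 FPKM) followed Nars.

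Farsb and Farsa encode the subunits of a single enzyme, and only Farsb was called. The ratio of Farsb to Farsa was 1.94, 1.61, 1.83 and 1.79 in CrT-/y and 1.96, 2.07 and 2.17 in CrT+/y animals. The groups did not overlap, but replicate 0 of CrT-/y lay next to replicate 1 of CrT+/y. The log2 difference of the ratio was -0.20, with p = 0.0571 in the exact two-sided permutation test. The ratio was chosen after the values of both genes had been seen.

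**Figure D2:**
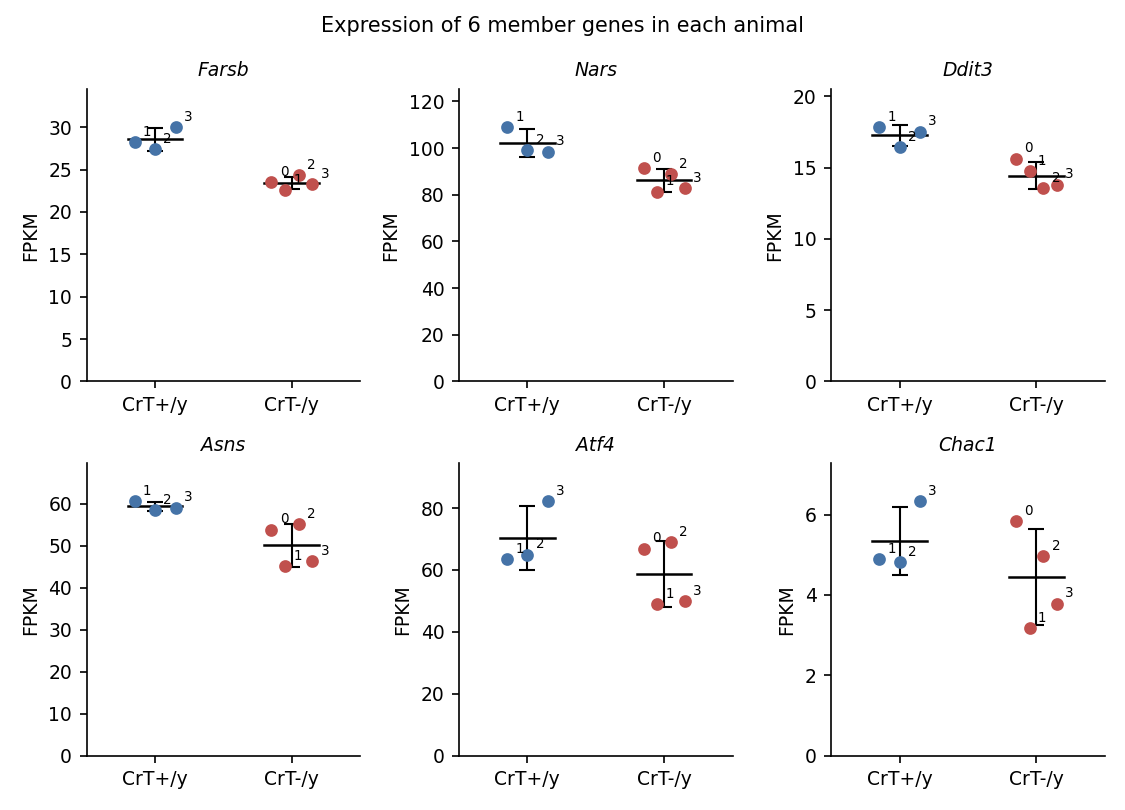
FPKM of 6 genes in each animal, with the replicate number beside each point, the mean as a line and the SD as bars (CrT+/y n = 3, CrT-/y n = 4). In Farsb, Nars, Ddit3 and Asns the CrT-/y points lie below all CrT+/y points, while in Atf4 and Chac1 CrT-/y replicates 0 and 2 lie among the CrT+/y animals and replicates 1 and 3 below them.

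None of the 6 enzymes of amino acid and one-carbon metabolism passed the test. Asns, asparagine synthetase, came closest to the threshold. It was at 53.9, 45.1, 55.1 and 46.3 FPKM in CrT-/y and at 60.6, 58.4 and 59.0 FPKM in CrT+/y animals, a log2 difference of -0.25 (SE 0.078, adjusted p = 0.102 with limma). The CrT-/y animals fell into a higher pair, replicates 0 and 2, and a lower pair, replicates 1 and 3, all under the CrT+/y animals. With genes under a mean of 5 FPKM left out of the fit, Asns passed the threshold (adjusted p = 0.089 with limma), as did Tars (adjusted p = 0.097 with limma).

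The estimate of Mthfd2, the mitochondrial methylenetetrahydrofolate dehydrogenase, was the lowest of the 36 and also the least precise. Mthfd2 was at 3.79, 2.36, 3.38 and 2.26 FPKM in CrT-/y and at 3.45, 3.75 and 4.91 FPKM in CrT+/y animals, and the groups overlapped. Its log2 difference was -0.46 (SE 0.20, 95% interval -0.91 to -0.01, adjusted p = 0.191 with limma). The 3 enzymes that make serine from a glycolytic intermediate did not share a sign: the log2 difference was 0.11 for Phgdh, -0.085 for Psat1 and 0.080 for Psph, whose exons overlap those of Cct6a on the other strand over up to 452 bases. Shmt2, which passes the carbon of serine to mitochondrial folate, had a log2 difference of -0.11. These 3 serine enzymes are known to be enriched in astrocytes. The summed FPKM of 8 astrocyte markers was 1130 to 1244 in CrT-/y and 1224 to 1422 in CrT+/y animals. Of the 8, 7 were lower, with 1 called (Sox9, -0.27), and Gfap was higher without a call (0.34). The part of astrocytes in the values of these enzymes was not tested.

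Among the stress regulators, Ddit3 fell (1 of 6 tested, 16.7%, beside 7.25% of all tested genes) and none of the other 5 tested passed the threshold. Ddit3, which encodes the proapoptotic factor CHOP, was at 15.6, 14.8, 13.6 and 13.8 FPKM in CrT-/y and at 17.8, 16.5 and 17.5 FPKM in CrT+/y animals. The groups did not overlap, and here CrT-/y replicate 2 was the lowest of its group. The log2 difference was -0.26 (SE 0.067, 95% interval -0.41 to -0.11, adjusted p = 0.067 with limma), with p = 0.0571 in the exact two-sided permutation test. The call was lost without CrT-/y replicate 1, 2 or 3 and without CrT+/y replicate 1 (adjusted p between 0.148 and 0.176 with limma). Ddit3 lies at chr10:127290774-127296288 of GRCm38, plus strand, and its exons overlap those of the synthetase gene Mars on the other strand over up to 68 bases.

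Atf4 itself was at 66.9, 48.8, 68.9 and 50.0 FPKM in CrT-/y and at 63.6, 64.9 and 82.1 FPKM in CrT+/y animals. Its groups overlapped, and the log2 difference was -0.27 (SE 0.14, 95% interval -0.59 to 0.06, adjusted p = 0.273 with limma). Chac1, a glutathione-degrading enzyme induced with CHOP, was at 5.84, 3.18, 4.98 and 3.78 FPKM against 4.89, 4.81 and 6.33 FPKM (-0.29, adjusted p = 0.39 with limma). Within the list of 36, the 3 widest spreads were in genes of low level: the highest CrT-/y value was 1.84 times the lowest in Chac1, 1.68 times in Mthfd2 and 1.66 times in Sesn2, where the median over all tested genes was 1.14. Sesn2, a sestrin that restrains mTORC1, had a log2 difference of -0.18, and Atf5, a relative of ATF4, of -0.092.

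Ddit4, also called REDD1 and likewise a brake on mTORC1, had the largest positive difference of the 36 genes. It was at 22.9, 18.4, 21.6 and 18.9 FPKM in CrT-/y and at 14.9, 16.9 and 20.9 FPKM in CrT+/y animals, so that CrT+/y replicate 3 lay among the CrT-/y animals (log2 difference 0.23, SE 0.12, adjusted p = 0.262 with limma). Without CrT+/y replicate 3, Ddit4 passed the threshold (adjusted p = 0.046 with limma). Trib3, a pseudokinase that ATF4 and CHOP induce, was low in every animal, at 0.43, 0.58, 0.43 and 0.26 FPKM in CrT-/y and at 0.18, 0.29 and 0.30 FPKM in CrT+/y animals. With the filter lowered to a mean of 0.1 FPKM, its log2 difference was 0.55 (SE 0.27, adjusted p = 0.263 with limma), a value that the added 0.1 understates.

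None of the 4 amino acid transporters passed the test, and their values overlapped in every case. Slc3a2, the shared heavy chain of several exchangers, had a log2 difference of 0.084, and Slc7a11, the cystine and glutamate exchanger that pairs with it, of 0.17. The cationic transporter Slc7a1 had a log2 difference of 0.066, and the large neutral amino acid transporter Slc7a5 of -0.016. Their median was 0.07 as deposited and between 0.11 and 0.13 under the 3 other scalings. The upper bounds of their intervals ended between 0.17 and 0.40 on the log2 scale.

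The differences were also set out by the ATF4 core. Of the 8 tested genes that held TGATGNAA, 7 were lower, 0 were called, and the median log2 difference was -0.17. Of the 20 others with a window, 14 were lower, 2 were called (Farsb and Ddit3), and the median was -0.076. No test was made of this difference. Over all tested genes, 58.2% were lower and 10.1% were called. Trib3, which also held the core, was under the filter and had a higher mean in CrT-/y animals (0.43 against 0.25 FPKM). Genes without a window, Nars among them, are in neither group.

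The genes also shared an order among the CrT-/y animals. Replicates 0 and 2 were the 2 highest CrT-/y animals in 25 of the 36 genes (69.4%), beside 17.4% of all tested genes, and replicates 1 and 3 were the 2 highest in Hars alone. The order held in 6 of 6 enzymes, in 5 of 6 regulators (Atf4, Chac1, Ddit4, Atf5 and Sesn2), in 3 of 4 transporters (Slc3a2, Slc7a1 and Slc7a5) and in 11 of 20 synthetases. It was found in 24 or 25 of the 36 genes under each of the 3 other scalings. In the related lists the order was found in 3 of 17 mitochondrial synthetases (17.6%), 2 of 14 genes of eIF2 control (14.3%), 5 of 17 further ATF4 targets (29.4%) and 2 of 12 ER chaperones (16.7%). The order was noticed in the values and is given as a description, with no test. The summed astrocyte markers had the same order, at 1244, 1130, 1227 and 1177 FPKM in CrT-/y replicates 0 to 3, but only 3 of the 8 markers had it singly (Slc1a2, Aldoc and Sox9), and their part in it was not tested. Of the other markers, 3 of 5 mural and 3 of 4 choroid plexus genes had the order. It was found in 1 of 8 neuronal, 1 of 6 endothelial and 1 of 3 oligodendrocyte precursor genes. It was in 0 of 6 oligodendrocyte, 0 of 6 microglial, 0 of 6 striatal and 0 of 3 olfactory bulb genes. Among CrT+/y animals, replicate 3 was the highest in 18 of the 36 genes, beside 33.4% of all tested genes.

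**Figure D3:**
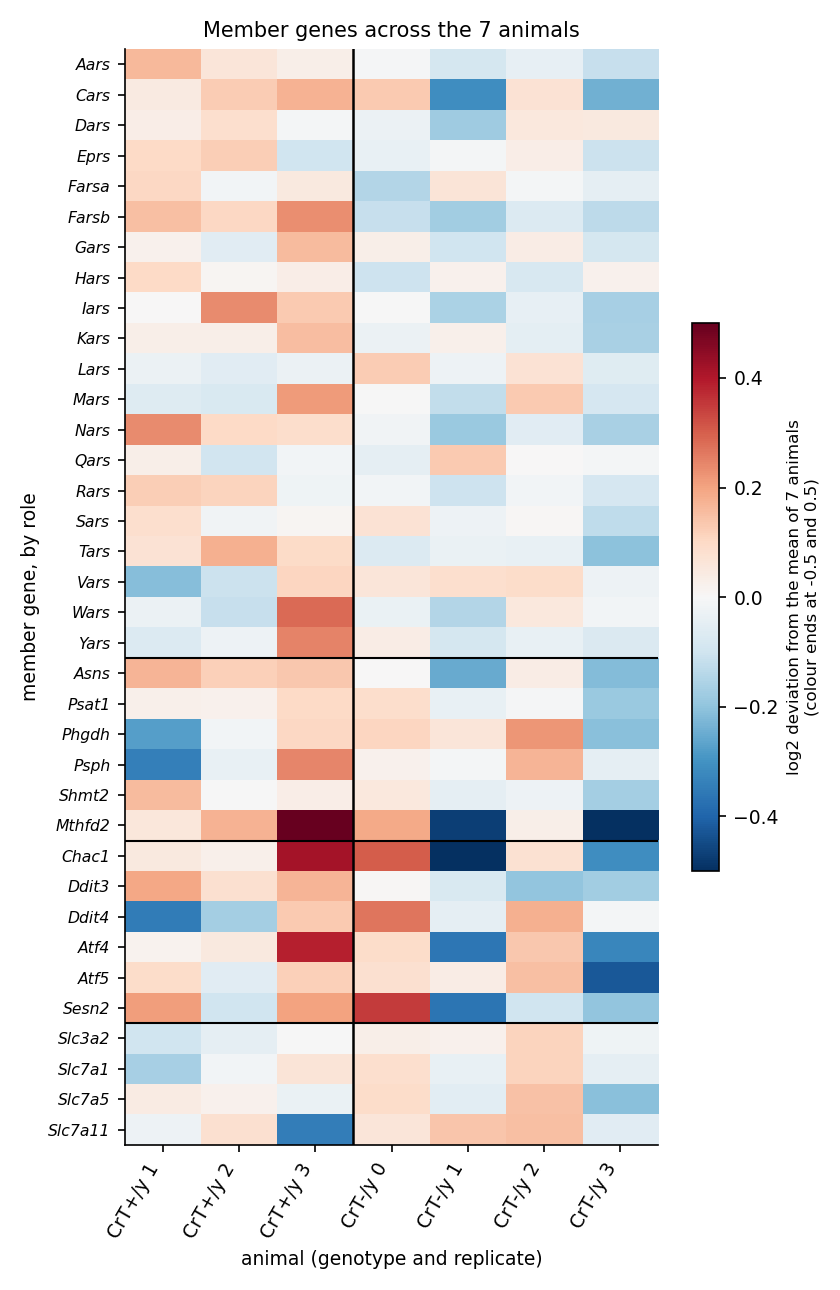
Log2 deviation of the 36 tested genes from the mean of the 7 animals, with genes by role in rows (synthetases, enzymes, regulators and transporters, divided by lines) and animals in columns; the color scale ends at -0.5 and 0.5. Among CrT-/y animals, columns 0 and 2 are redder than columns 1 and 3 in Atf4, Chac1, Sesn2, Mthfd2, Asns and Cars, and CrT+/y replicate 3 is the reddest column in Atf4, Chac1 and Mthfd2.

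Related genes of the same pathways were compared in the same fit. The 3 scaffold genes of the multisynthetase complex were not called, with Eef1e1 at a log2 difference of -0.12 and Aimp2 at -0.090. Of 17 mitochondrial tRNA synthetases, 0 were called (3, or 17.6%, had an unadjusted p under 0.05, beside 25.0% of all tested genes), and the smallest p-values belonged to Aars2 (-0.20, adjusted p = 0.126 with limma) and Rars2 (0.24, adjusted p = 0.14 with limma). Lars2, named after its values were seen, ranged from 38.8 to 122 FPKM within the CrT-/y group and from 59.0 to 127 FPKM within the CrT+/y group.

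In the control of eIF2, 2 of 14 genes (14.3%) fell, beside 7.25% of all tested genes, and 0 rose, beside 2.9%. The median log2 difference of the list was 0.070, with 8 genes higher and 6 lower. Eif2ak1, the heme-regulated eIF2 kinase that also relays mitochondrial stress, was at 29.3, 27.5, 27.5 and 28.0 FPKM in CrT-/y and at 37.2, 35.6 and 35.6 FPKM in CrT+/y animals. Every CrT-/y animal lay below every CrT+/y animal, and the log2 difference was -0.36 (SE 0.051, adjusted p = 0.023 with limma), a call held whichever single animal was left out and lost when CrT-/y replicate 1 and CrT+/y replicate 2 were left out together (adjusted p = 0.14 with limma). Eif2s1, the eIF2 subunit that the kinases phosphorylate, was at 13.4, 11.9, 13.1 and 12.5 FPKM against 14.6, 14.9 and 14.8 FPKM (-0.21, adjusted p = 0.080 with limma), and it lost its call without any 1 animal other than CrT+/y replicate 3 and under the 3 other scalings (adjusted p between 0.129 and 0.147 with limma). The other kinases, Eif2ak2, Eif2ak3 and Eif2ak4, had log2 differences between 0.072 and 0.16 and were not called.

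Among 24 partners and further targets of ATF4, 17 were tested, 1 was called lower (5.88%, beside 7.25% of all tested genes) and 0 higher. The median log2 difference of the 17 was -0.011, so the list as a whole was near the median of all tested genes. The called gene was Cebpg, a C/EBP factor that dimerizes with ATF4, at 9.26, 9.86, 9.80 and 8.96 FPKM in CrT-/y and at 13.2, 11.2 and 10.8 FPKM in CrT+/y animals (-0.30, adjusted p = 0.077 with limma). CrT+/y replicate 1 stood above the rest, and the call was lost without it (adjusted p = 0.188 with limma) and in each other fit without 1 animal except that without CrT+/y replicate 3. It was also lost under the 3 other scalings (adjusted p between 0.101 and 0.115 with limma).

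The ER chaperones, which are known targets of ATF6 and XBP1 rather than of ATF4 alone, fell as a list. All 12 were called lower, beside 7.25% of all tested genes, and all 12 had groups that did not overlap, beside 21.6% in either direction. The median log2 difference was -0.49, beside -0.08 for the 36 genes above. The list was chosen with earlier results of these data known, so these shares are a description of the list. The chaperone BiP, encoded by Hspa5, was at 64.8, 65.0, 72.0 and 66.5 FPKM in CrT-/y and at 98.1, 104 and 116 FPKM in CrT+/y animals (-0.66, adjusted p = 0.006 with limma). Pdia6 (-0.59), Pdia4 (-0.60) and Calr (-0.56) were the other 3 with the smallest p-values. Markers of vessels also included genes called lower, Flt1 (-0.40) and Pecam1 (-0.31) of 6 endothelial and Rgs5 (-0.40) of 5 mural markers. Of the same lists, Slco1a4 (0.15) of the endothelial and Pdgfrb (0.028) and Vtn (0.074) of the mural markers were higher without a call. The remaining markers were lower without a call. Summed FPKM was 63.4 to 79.3 in CrT-/y and 75.7 to 88.7 in CrT+/y animals for endothelium. For mural cells it was 88.7 to 99.9 and 98.0 to 111. Calls were not limited to vessels. Of 8 neuronal markers, 5 were lower with 1 called (Nefl, -0.25), and 3 were higher with 1 called (Gad1, 0.24). Sox9 was the 1 astrocyte marker called. The part of these markers in the fall of the chaperones was not tested. Without CrT-/y replicate 1, 6 of the 12 were called, as also when CrT+/y replicate 2 was left out with it. Ddit3 and the chaperones are known to be induced together in ER stress, and Ddit3 was lower by 0.26 where Hspa5 was lower by 0.66 on the log2 scale. Whether the 2 differences are linked was not tested.

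**Figure D4:**
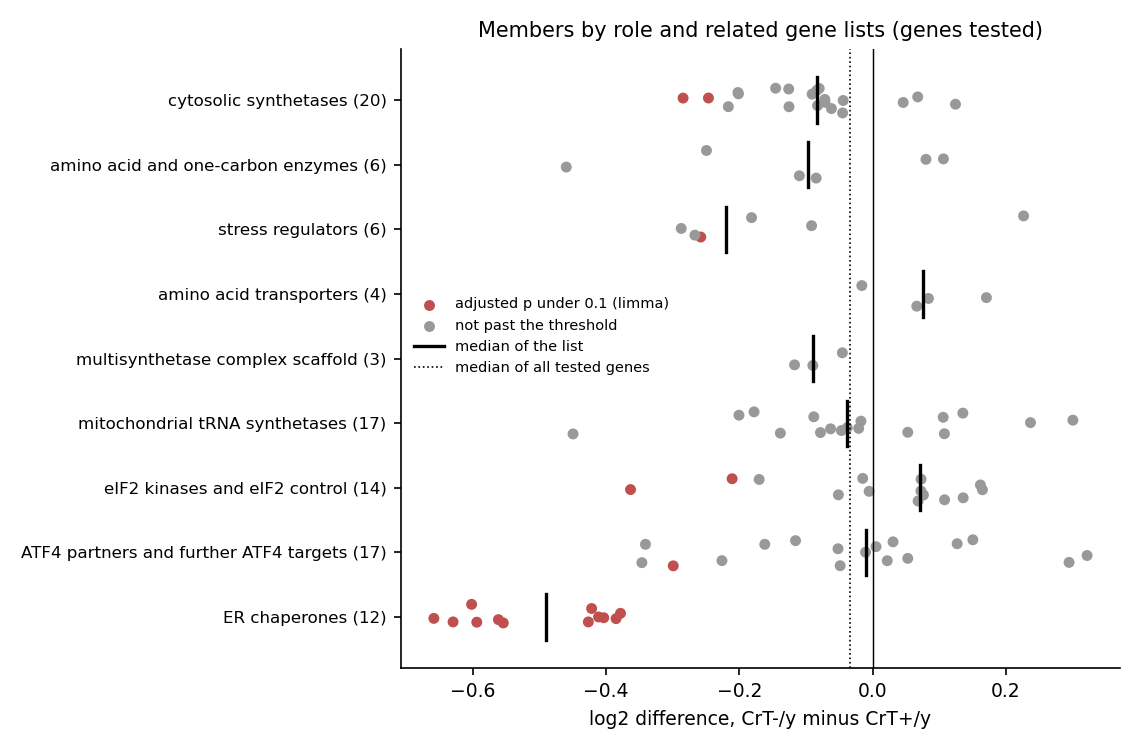
Log2 differences, CrT-/y minus CrT+/y, of the genes by role (upper 4 rows) and of the related lists (lower 5 rows), 1 point for each tested gene, with the number tested in brackets. Red marks genes with an adjusted p under 0.1 with limma, short black bars the median of each list and the dotted line the median of all tested genes. The 12 ER chaperones lie between -0.66 and -0.38. The 36 genes of the program lie on both sides of the dotted line (-0.03), most of them below it, with a median of -0.08.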

How the data were processed

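Cortical RNA of 4 CrT-/y and 3 CrT+/y mice was sequenced as mRNA libraries in paired-end mode. Reads were aligned to mm10 by the authors, who deposited 1 FPKM value for each gene and animal; the submitters' processing notes name Bowtie and Cuffnorm, and versions are not given in the sources used here. No other column of samples was present. Groups and replicate numbers came from the labels. Because FPKM are not counts, limma 3.58.1 (R 4.3.3) was run on log2(FPKM + 0.1), which understates changes of low genes, with genotype as the only term, a variance trend, and p-values adjusted after Benjamini-Hochberg over 12988 genes (mean of at least 1 FPKM; threshold 0.1). Single genes were also compared by exact two-sided permutation over the 35 splits. The fit was tested on simulated data. Positions and exon overlaps came from GENCODE M21, promoter windows from RefSeq. The study lists reads per replicate, which were not used here; reads per gene could not be recovered from FPKM, since low values showed no common step (at most 3.18% of genes in 1 bin). Python 3.11.15 was used for summaries.

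All 37 genes were to be named; further lists give genes past the threshold, at most the 4 with the smallest p, otherwise the 2 with the smallest p. The genes, lists and tests were chosen with earlier results of these data known. Alternatives were other pseudocounts, filters, scalings and moderation, a transcript length correction, a replicate block and each animal left out. Same-numbered animals did not deviate together (r = -0.078, 0.046 and -0.051), so the numbers were not used as pairs. A related list and a promoter stretch are not reported here.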

Additional observations from a re-analysis of the deposited data

How the results depend on the processing

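The count of 3 genes called lower was unchanged with a pseudocount of 1 or 0.01, with the filter at 0.1 FPKM and after the length correction, and it was 2 with no filter on low values or without a variance trend. It was 5 with a filter at 5 FPKM, 1 after quantile normalization, upper quartile scaling or median centring, and 1 at an adjusted p under 0.05. With the replicate block it was 1 (Ddit3; Farsb had an adjusted p of 0.104 with limma). CrT-/y replicate 0 has no same-numbered partner and does not enter that estimate. Leaving out 1 animal gave 0 to 7 genes called lower and 0 to 2 called higher. With CrT-/y replicate 1 and CrT+/y replicate 2 left out, chosen after seeing the data, 0 were called. The related lists held 16 calls, 7 to 22 without 1 animal and 6 without that pair. No called log2 difference changed sign; of the single-gene values under alternatives, 838 kept their side of the threshold, 61 lost a call and 9 gained one. The 25 genes with CrT-/y replicates 0 and 2 highest were 24 or 25 under other scalings. Reads per gene were not recovered from FPKM, so no counting error is given.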
